A study of Sus scrofa with 6 samples.

Results

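The genes described here are those of mitosis, the cyclins and cell cycle control, as read in cerebral cortex taken from pig embryos. They were chosen by gene symbol and not by their values: cyclins A to G, cyclin-dependent kinases (CDKs) without CDK5 and its relatives, CDK inhibitors, CDC20, CDC25 and other CDC genes, Aurora, Polo-like and NIMA-related (NEK) kinases, the spindle checkpoint, the anaphase-promoting complex, centromere proteins, condensin subunits, E2F factors and a few single genes such as survivin. Of 6765 genes with exactly 1 symbol in the annotation of the array, 65 met this rule. They are read by 88 of the 23999 probe sets tested, a probe set being the group of short probes that measures 1 transcript. Where a gene had several probe sets, the one with the highest mean log2 signal over the 6 arrays stands for it.

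Total RNA of the cortex was hybridised to 1 Affymetrix Pig Genome Array per embryo, 3 embryos at embryonic day 80 (E80, arrays 4, 5 and 6) and 3 at embryonic day 60 (E60, arrays 1, 2 and 3). The cortical surface has its primary folds at E80 and is still smooth at E60, and the comparison asks which transcripts differ between these stages. The embryos of both days are described without a treatment or genetic change and without breed or sex. Embryos of different days are of different litters, so that litter and day cannot be told apart, and the litter of a single embryo is not labelled. Each value is a MAS5 signal, a linear measure of probe brightness. Such signals are not read counts and have no depth, and the number of arrays limits the precision.

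The cell cycle is driven by CDKs, kinases that are active only when bound to a cyclin. D-type cyclins act early in the cycle, cyclin A acts in replication and before mitosis, and cyclin B carries the cell into mitosis, after which the anaphase-promoting complex with CDC20 marks cyclin B and other proteins for degradation. In the fetal cortex, radial glia and intermediate progenitors divide in the germinal zones, glial progenitors, microglia and the cells of vessels and meninges can divide too, and neurons that leave the germinal zones have left the cycle for good. Many genes of mitosis are transcribed mainly in cells that are about to divide. In tissue RNA, fewer dividing cells and less RNA per dividing cell cannot be told apart.

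Most of the cell cycle genes had a lower signal at E80 than at E60, and in cyclin B1 and the CDK subunit CKS2 this difference passed the test. Of the 65 genes, 46 (70.8%) had a negative log2 difference, against 55.7% of all probe sets. The 3 arrays of E80 lay below all 3 of E60 for 27 genes (41.5%), against 14.4% of all probe sets, and above them for 5 (7.69%), against 9.25%. In limma, 2 genes fell (3.08%, background 1.01% of all probe sets lower at E80), which are CCNB1 and CKS2, and 1 rose (1.54%, background 0.933% higher at E80), the CDK inhibitor CDKN2D. The words rose and fell stand for a Benjamini-Hochberg adjusted p under 0.05 over all 23999 probe sets (1.95% of them in either direction), every change is a log2 difference of E80 minus E60, and SE is its standard error. The other 62 genes did not pass, with log2 differences of -2.24 to 1.26. At an unadjusted p under 0.05, 23 genes were lower (35.4%, background 10.8%) and 2 higher (3.08%, background 7.12%). Over the brightest probe sets of all 6765 genes, the same shares were 50.1% with a negative difference, 14.7% with E80 below E60 and 12.8% above, 1.05% that fell and 1.49% that rose, and at an unadjusted p under 0.05 10.6% lower and 10.1% higher.

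The median log2 difference of the 65 genes was -0.25, beside -0.05 over all probe sets and 0.00 over the brightest probe sets of all 6765 genes. The median signal of all probe sets was 55.6 to 59.5 on the arrays of E80 and 60.9 to 64.8 on those of E60. With the array medians made equal, the median of all probe sets moved to 0.06 and that of the cell cycle genes to -0.13. Over all probe sets 224 rose and 243 fell, and with medians made equal 311 rose and 108 fell. Equal medians add the same constant to every log2 difference, so the gap between the medians of the cell cycle genes and of all probe sets, -0.20, cannot change by it. It was -0.18 after quantile normalization. All other values are in the deposited scaling. ANAPC4, CCNC, CCND2, CCNG1 and MAD2L2 had differences of -0.10 to 0.12 in the deposited scaling, with medians made equal and after quantile normalization, and their sign depends on which of these is used. With medians made equal, 19 genes had all arrays of E80 below E60 (29.2%, against 8.84% of all probe sets). Without array 1, 2, 3 or 4 none of the 3 calls remained, without array 5 only CDKN2D rose and none fell, and leaving out each array in turn gave a median of -0.29 to -0.20 for the 65 genes.

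**Figure D1:**
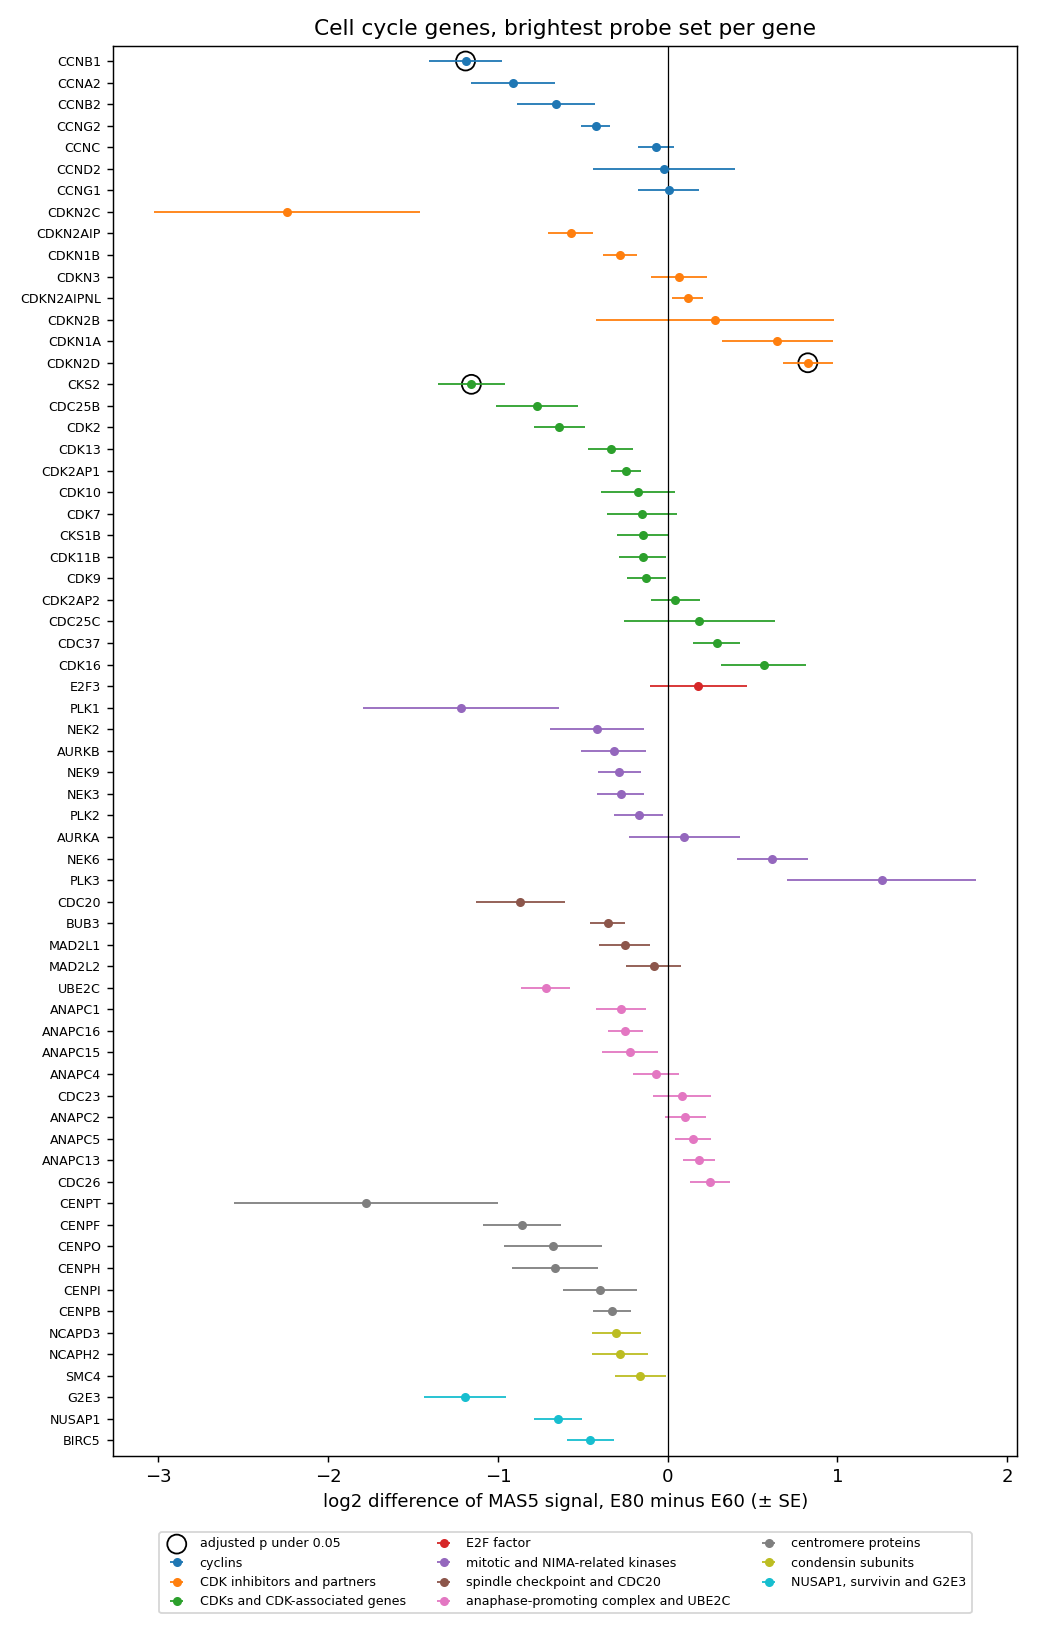
Log2 difference of the MAS5 signal, E80 minus E60 (horizontal axis), for the 65 cell cycle genes grouped by role (vertical axis), with bars of 1 standard error from limma and rings around the 3 genes with an adjusted p under 0.05. All centromere and condensin genes lie left of 0, while the members of the anaphase-promoting complex lie on both sides of it.

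The A- and B-type cyclins and cyclin G2 had lower signals at E80, and the other 3 cyclins overlapped between the days. Of 7 cyclins 1 fell (14.3%, against 1.01% of all probe sets) and none rose (against 0.933%). For 4 all arrays of E80 were below those of E60 (57.1%, against 14.4%). Cyclin B1 (CCNB1), the partner of the mitotic kinase, had signals of 62.2, 45.8 and 80.2 at E80, against 138, 157 and 126 at E60. The means were 62.7 ± 17.2 at E80 and 140.1 ± 15.9 at E60 (SD, n = 3 each), and CCNB1 fell by 1.19 on the log2 scale (SE 0.22, adjusted p = 0.0388). Its call depends on the scaling, since the adjusted p was 0.0531 with medians set equal and 0.0516 after quantile normalization, with log2 differences of -1.08 and -1.10. Cyclin A2 (CCNA2), which acts from replication to the entry into mitosis, had signals of 20.3, 21.8 and 22.7 at E80, against 41.6, 32.8 and 49.1 at E60, without overlap. The difference was -0.91 (SE 0.25, adjusted p = 0.104). Cyclin B2 (CCNB2) had signals of 23.5, 29.5 and 33.8 at E80, against 50.3, 45.2 and 40.6 at E60, again apart, with a log2 difference of -0.66 (SE 0.23, adjusted p = 0.185).

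Cyclin G2 (CCNG2), known from cells that leave the cycle, had signals of 499.9, 503 and 492 at E80, against 725, 648 and 638 at E60. The days were apart, and the log2 difference was -0.43 (SE 0.09, adjusted p = 0.053), just outside the threshold. It passed after quantile normalization (adjusted p = 0.0453). Cyclin G1 (CCNG1), a target of p53, had signals of 651, 1068 and 694 at E80, against 799, 723 and 828 at E60, and the days overlapped. Cyclin C (CCNC), which acts in the Mediator complex of transcription, had a log2 difference of -0.07 (SE 0.10, adjusted p = 0.779). The D-type cyclin CCND2, known from cortical progenitors, had signals of 852, 1010 and 414 at E80, against 1000, 949.6 and 394 at E60. Here 1 array of each day, array 6 and array 3, had less than the other arrays, the days overlapped, and the log2 difference was -0.02 (SE 0.42, adjusted p = 0.984).

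Among the inhibitors, CDKN2D was higher at E80 and several others were lower or overlapped. CDKN2D (p19), which blocks the D-type cyclin kinases and is known from neurons after their last division, had signals of 496, 343 and 481 at E80, against 232, 247 and 256 at E60. Every array of E80 was above every array of E60. The means were 440.0 ± 84.5 at E80 and 245 ± 12 at E60 (SD, n = 3 each), and CDKN2D rose by 0.83 (SE 0.15, adjusted p = 0.0384), a call that held with medians set equal (adjusted p = 0.0395) and after quantile normalization (adjusted p = 0.0331). Its relative CDKN2C (p18) had signals of 4.54, 2.96 and 30.9 at E80, against 39.8, 32.7 and 33.8 at E60. Arrays 4 and 5 were far below E60 and array 6 was near it, and the log2 difference was -2.24 (SE 0.78, adjusted p = 0.183). The study used a threshold of 3-fold for genes that changed consistently over the triplets, read here as no overlap between the days. It does not say how the fold was formed, so the counts here need not match its list. That list holds KIAA1333, an earlier name of G2E3, as lower at E80, and does not name CDKN2C. By the mean log2 signals, G2E3 had a fold of 2.29 here, without overlap. By the difference of mean log2 signals, CDKN2C is the only one of the 65 genes past 3-fold without overlap (background 1.21% of all probe sets in either direction). Past 2-fold without overlap were 4 (background 3.31%). With medians made equal, after quantile normalization or without array 5, none of the 65 was past 3-fold without overlap. By the ratio of the mean linear signals, 2.77 for CDKN2C, none was past it either. The signal of CDKN2C was below the median of all probe sets. Without array 6 the difference was -3.27 (adjusted p = 0.0297).

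CDKN1B (p27), an inhibitor that holds cells out of the cycle, had signals of 550.2, 544 and 519.9 at E80, against 654, 724 and 591 at E60, apart and lower at E80, with a log2 difference of -0.28 (SE 0.10, adjusted p = 0.184). CDKN1A (p21), a target of p53, had signals of 69.4, 54.1 and 133 at E80, against 56.3, 56.1 and 41.4 at E60. Array 6 was the highest of the 6 arrays, the days overlapped, and the log2 difference was 0.65 (SE 0.33, adjusted p = 0.349). CDKN2AIP, a partner of the ARF protein and no CDK inhibitor itself, had signals of 92.1, 95.4 and 87.4 at E80, against 147, 142 and 121 at E60. They did not overlap, and the log2 difference was -0.57 (SE 0.13, adjusted p = 0.0729). Its relative CDKN2AIPNL had signals of 658, 643 and 657 at E80, against 579, 566 and 664 at E60, overlapping, and the phosphatase CDKN3 had a log2 difference of 0.07 (SE 0.17, adjusted p = 0.877). CDKN2B (p15) was near the bottom of the scale on every array, with mean signals of 1.86 at E80 and 1.68 at E60.

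Among the CDKs and the genes that act on them, the small subunit CKS2 fell, and CDK2 and CDC25B had lower signals at E80 without passing. CKS2, which binds the mitotic kinase and helps it find its substrates, had signals of 70.6, 69.5 and 107 at E80, against 195, 155 and 191 at E60. All arrays of E80 lay below those of E60, with array 6 the nearest to them. The means were 82.2 ± 21.1 at E80 and 180.5 ± 21.9 at E60 (SD, n = 3 each), and CKS2 fell by 1.16 on the log2 scale (SE 0.20, adjusted p = 0.0321), a call that held with medians set equal (adjusted p = 0.0412) and after quantile normalization (adjusted p = 0.0395). The related subunit CKS1B, which also serves the degradation of p27, had signals of 138, 166 and 202 at E80, against 189.6, 179 and 185 at E60, overlapping, with a log2 difference of -0.15 (SE 0.15, adjusted p = 0.66). A test of the difference between CKS2 and CKS1B was not run.

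CDK2, the partner of cyclins E and A, had signals of 65.3, 71.2 and 84.0 at E80, against 116, 117 and 108 at E60. The days were apart, and the log2 difference was -0.64 (SE 0.15, adjusted p = 0.0729). The other 2 probe sets of CDK2 were dimmer and had differences of -0.35 (adjusted p = 0.597) and -0.71 (adjusted p = 0.398). CDC25B, a phosphatase that activates CDKs before mitosis, had signals of 44.2, 28.8 and 51.6 at E80, against 69.9, 65.6 and 71.0 at E60, without overlap, and a log2 difference of -0.77 (SE 0.24, adjusted p = 0.144). CDC25C, of the same family, was dim, with a log2 difference of 0.19 (SE 0.45, adjusted p = 0.871). CDK2AP1, which binds CDK2, had signals of 687, 798 and 728 at E80, against 853, 852 and 915 at E60, apart by a small margin, with a log2 difference of -0.25 (SE 0.09, adjusted p = 0.199), while CDK2AP2 overlapped (0.04, adjusted p = 0.906).

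The remaining CDKs had log2 differences of -0.33 to 0.57, and none passed. CDK7, which activates other CDKs and acts in transcription, CDK9, the elongation kinase, and CDK10 and CDK11B had log2 differences of -0.18 to -0.13 with adjusted p of 0.616 to 0.754, and all 4 overlapped. CDK13, a kinase of RNA polymerase, had no overlap on either of its probe sets, with a log2 difference of -0.33 (SE 0.13, adjusted p = 0.234) on the brighter and of -0.40 (SE 0.15, adjusted p = 0.213) on the dimmer. CDK16, which is known from neurons, had signals of 632, 569.7 and 711 at E80, against 392, 305 and 659 at E60. Array 3 lay within the range of E80, or just above it on the dimmest probe set, and arrays 1 and 2 lay below it on each of the 3 probe sets of CDK16, whose log2 differences were 0.57, 0.64 and 0.47 (adjusted p = 0.284, 0.26 and 0.465). Without array 3 its brightest probe set passed, with a difference of 0.88 (adjusted p = 0.0467). CDC37, a chaperone partner of kinases, had a log2 difference of 0.29 (SE 0.14, adjusted p = 0.326). E2F3, the 1 measured member of the E2F transcription factors that switch on replication genes, had signals of 75.4, 54.3 and 40.1 at E80, against 54.3, 57.3 and 36.2 at E60, with a log2 difference of 0.18 (SE 0.29, adjusted p = 0.791).

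**Figure D2:**
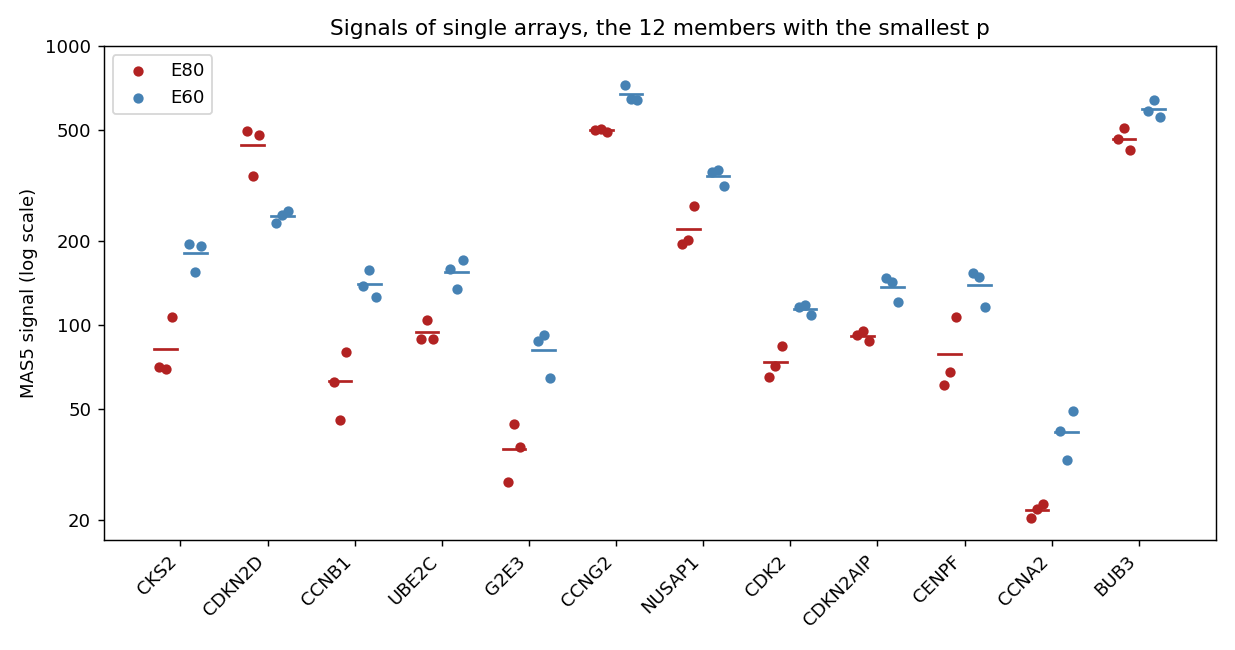
MAS5 signal (vertical axis, log scale) of each array for the 12 cell cycle genes with the smallest p, in order of p (horizontal axis). Points are single arrays, E80 in red and E60 in blue, and lines are means. CDKN2D is the 1 gene of these with E80 above E60, and for every gene shown the points of the days do not overlap.

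None of the 9 mitotic and NIMA-related kinases passed the test, and 6 of them had negative differences (66.7%, against 55.7% of all probe sets). At an unadjusted p under 0.05, 1 was higher (11.1%, against 7.12%) and none was lower (against 10.8%). Polo-like kinase 1 (PLK1), a main kinase of mitosis, had signals of 30.8, 6.43 and 26.7 at E80, against 45.1, 29.5 and 49.8 at E60. Array 5 was far below the others, the days overlapped, and the log2 difference was -1.22 (SE 0.57, adjusted p = 0.315). Aurora B (AURKB), which corrects the attachment of chromosomes to the spindle, had signals of 62.2, 62.5 and 82.3 at E80, against 104, 78.3 and 76.2 at E60, overlapping, with a difference of -0.32 (SE 0.19, adjusted p = 0.436). The centrosome kinase Aurora A (AURKA) had differences of 0.10 (adjusted p = 0.909) and, on its dimmer probe set, -0.42 (adjusted p = 0.402), so that its direction depends on the probe set. NEK2, which separates the centrosomes, had a log2 difference of -0.42 (SE 0.28, adjusted p = 0.483) on its brightest probe set.

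NEK6, a kinase of the mitotic spindle, had higher signals at E80. Its signals were 425, 581 and 392 at E80, against 223, 356 and 339 at E60, higher at E80 without overlap, and the log2 difference was 0.62 (SE 0.21, adjusted p = 0.176). The second probe set of NEK6 overlapped, with a difference of 0.44 (adjusted p = 0.402). NEK9, which acts before NEK6 in a kinase cascade, had signals of 130.1, 146 and 163 at E80, against 190.1, 174 and 169 at E60, and the log2 difference was -0.28 (SE 0.13, adjusted p = 0.287). The days of NEK9 were apart on this probe set and overlapped on the other (-0.06, adjusted p = 0.873). NEK3 was lower without overlap (-0.28, adjusted p = 0.343). The stress-responsive kinases PLK2, also known from synapses, and PLK3 had differences of -0.17 (adjusted p = 0.592) and 1.26 (adjusted p = 0.286). PLK2 had signals of 640.3, 458 and 480.0 at E80, against 539, 666 and 561 at E60, with array 4 among those of E60. PLK3 was dim, with signals of 26.5, 19.8 and 31.4 at E80, against 11.8, 22.4 and 4.57 at E60, and overlapped.

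The 4 genes of the spindle checkpoint and its target CDC20 had negative differences (against 55.7% of all probe sets). For 2 of them E80 lay below E60 without overlap (50%, against 14.4%). The sign of MAD2L2 turned with medians made equal. CDC20, which activates the anaphase-promoting complex, had signals of 53.4, 32.4 and 65.5 at E80, against 83.1, 97.0 and 85.5 at E60, with a log2 difference of -0.87 (SE 0.26, adjusted p = 0.133). BUB3, a checkpoint protein that sits at the kinetochore, had signals of 462, 507 and 424 at E80, against 583, 642 and 554 at E60, with a difference of -0.35 (SE 0.10, adjusted p = 0.125). In both genes each array of E80 was below each array of E60, and neither passed. MAD2L1, the protein that holds CDC20 back, had signals of 119, 129 and 169.6 at E80, against 172, 161 and 161 at E60. Arrays 4 and 5 were lower and array 6 lay within E60, and the difference was -0.25 (SE 0.15, adjusted p = 0.426). MAD2L2, whose known role is in DNA repair, had a difference of -0.08 (SE 0.16, adjusted p = 0.839).

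None of the genes of the anaphase-promoting complex passed, and they were split in direction. The median log2 difference of the 10 genes was 0.01, and 5 were negative and 5 positive (4 and 6 with medians made equal, where ANAPC4 turned). The negative share was 50%, against 55.7% of all probe sets. UBE2C, the enzyme that brings ubiquitin to the complex, had the widest difference of the 10. Its signals were 88.7, 104 and 89.0 at E80, against 159, 135 and 171 at E60, without overlap, and the log2 difference was -0.72 (SE 0.14, adjusted p = 0.0502), just outside the threshold. On their brightest probe sets the other 9 genes had log2 differences of -0.27 to 0.25 and adjusted p of 0.26 to 0.843. On a second probe set of ANAPC1, of nearly the same brightness, the days were apart, with signals of 71.5, 85.3 and 76.5 at E80, against 113, 114 and 100.3 at E60, and a difference of -0.49 (SE 0.14, adjusted p = 0.123). ANAPC16 was lower without overlap, with signals of 318, 355 and 383 at E80, against 447, 403 and 403 at E60, and a difference of -0.25 (SE 0.10, adjusted p = 0.26). CDC26, a small structural subunit, had signals of 209.6, 259.8 and 234 at E80, against 194, 189 and 207 at E60, higher without overlap, and a difference of 0.25 (SE 0.12, adjusted p = 0.308), and ANAPC13 (0.18, adjusted p = 0.357) had the same order of the days. ANAPC5 has 4 probe sets, of which the brightest was higher at E80 without overlap (201, 185 and 179.5 at E80, against 172, 167 and 171 at E60) and the others had log2 differences of -0.06, -0.37 and 0.34 with adjusted p of 0.44 to 0.865, so that its direction is not settled.

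All 6 centromere proteins had negative differences (against 55.7% of all probe sets), with a median of -0.67 and none past the test. For 4 of them E80 lay below E60 without overlap (66.7%, against 14.4%). CENPF, a kinetochore protein made mainly before mitosis, had signals of 61.0, 68.0 and 106 at E80, against 154, 148 and 116 at E60. Its days were apart and array 6 was again the nearest to E60, and the log2 difference was -0.86 (SE 0.23, adjusted p = 0.101). CENPF passed without array 6 (-1.10, adjusted p = 0.0499). CENPH, of the inner kinetochore, had signals of 43.5, 31.4 and 55.2 at E80, against 78.9, 67.7 and 56.1 at E60, and its difference was -0.66 (SE 0.25, adjusted p = 0.216). CENPB, which binds a repeat of centromeric DNA, had signals of 160.3, 176 and 178 at E80, against 225, 196 and 227 at E60, with a difference of -0.33 (SE 0.11, adjusted p = 0.178). CENPO and CENPI, further proteins of the inner kinetochore, had differences of -0.68 (adjusted p = 0.269) and -0.40 (adjusted p = 0.383). CENPT, which anchors the outer kinetochore, was dim, with signals of 4.36, 2.98 and 25.1 at E80, against 22.5, 15.3 and 38.0 at E60. Arrays 4 and 5 were low and array 6 lay within E60, with a log2 difference of -1.78 (SE 0.77, adjusted p = 0.279).

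The last groups are the condensin subunits, which compact chromosomes, and NUSAP1, survivin and G2E3. SMC4, shared by both condensins, had signals of 109.9, 124 and 129 at E80, against 160.2, 125 and 123 at E60, overlapping, with differences of -0.16 (adjusted p = 0.623) and, on its dimmer probe set, -0.70 (adjusted p = 0.189). NCAPD3 and NCAPH2, subunits of condensin II, were lower without overlap (66.7% of the condensin subunits, against 14.4% of all probe sets) and did not pass. NCAPD3 had signals of 62.5, 61.1 and 66.7 at E80, against 80.6, 76.2 and 77.6 at E60. Its difference was -0.30 (SE 0.15, adjusted p = 0.323). NCAPH2 had signals of 74.2, 86.8 and 85.4 at E80, against 94.4, 87.7 and 119 at E60. The days of NCAPH2 were apart by a small margin, with a difference of -0.28 (SE 0.16, adjusted p = 0.423). On the second probe set of NCAPH2 they overlapped, with a difference of -0.14 (adjusted p = 0.865). NUSAP1, which bundles spindle microtubules, had signals of 194, 202 and 267 at E80, against 354, 360.5 and 314 at E60, and a log2 difference of -0.64 (SE 0.14, adjusted p = 0.0618). The second probe set of NUSAP1 gave -0.74 (SE 0.17, adjusted p = 0.0729), and the days were apart on both. Survivin (BIRC5), the partner of Aurora B, had signals of 106, 107 and 134 at E80, against 166, 146 and 163 at E60, without overlap, and a difference of -0.46 (SE 0.14, adjusted p = 0.138). G2E3, a ubiquitin ligase named for its peak before mitosis, had signals of 27.2, 44.0 and 36.5 at E80, against 87.9, 92.4 and 64.4 at E60. Its days were far apart, and the difference was -1.19 (SE 0.24, adjusted p = 0.0516), just outside the threshold.

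At the margin of the test, CDKN2D and CCNB1 were the last inside it, with adjusted p of 0.0384 and 0.0388, and UBE2C, G2E3 and CCNG2 the first outside, with 0.0502, 0.0516 and 0.053. The signal of 49 of the 65 genes, averaged over the arrays, exceeded the median probe set. A total of 17 genes have more than 1 probe set, which adds 23 probe sets, 14 of them at or below that median. None of the 23 passed the test. For 18 the sign was that of the brightest probe set and for 5 the opposite.

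**Figure D3:**
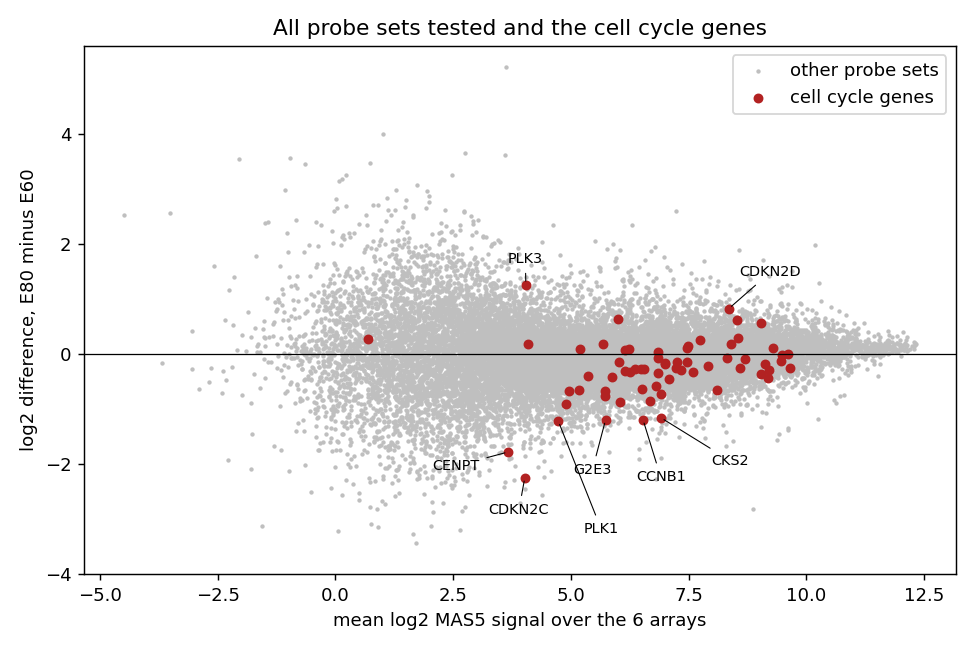
Log2 difference of the MAS5 signal, E80 minus E60 (vertical axis), against the mean log2 signal over the 6 arrays (horizontal axis), for all 23999 probe sets (grey, those of other genes and further probe sets of the same genes) and the brightest probe set of each of the 65 cell cycle genes (red). Most red points lie below 0, and CDKN2C, CENPT, PLK1 and PLK3, with some of the widest differences, are dim.

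Within E80, the arrays were not alike in these genes. The median log2 distance of the 65 genes from their E60 mean was -0.37, -0.23 and -0.17 on arrays 4, 5 and 6 of E80, and between -0.03 and 0.04 on those of E60. Over all probe sets this distance was -0.0803, -0.0008 and -0.0348 on arrays 4, 5 and 6. For the centromere proteins it was -0.89, -0.85 and -0.25, and for NUSAP1, survivin and G2E3 together -0.82, -0.76 and -0.36. Array 6 had the highest signal of E80 in 36 of the 65 genes (55.4%), against 36.4% of all 6765 genes, and in 18 of the 27 genes with no overlap and a lower signal at E80 (66.7%), against 34.8% of the 996 genes of that kind. By the median, array 6 is the array of E80 nearest to E60 in these genes. CCNG2, BUB3 and CDKN2AIP are among the exceptions, with their lowest signals of E80 on array 6.

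**Figure D4:**
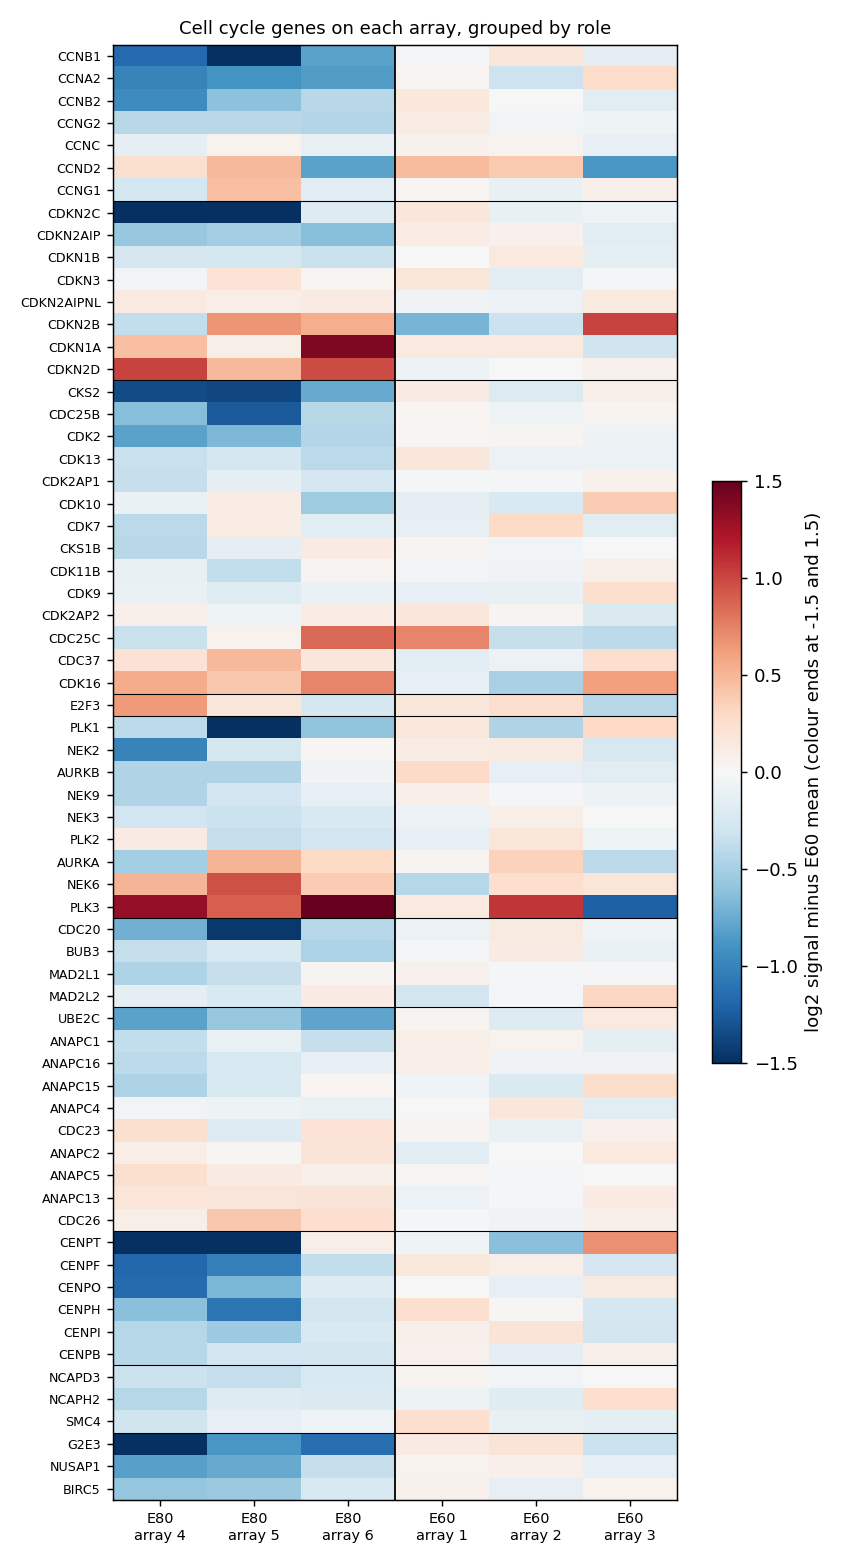
Log2 signal minus the mean of E60 (colour, cut at -1.5 and 1.5) of the 65 cell cycle genes (rows, grouped by role in the order of the text, lines between the roles) on each array (columns, E80 left and E60 right). The blue of the centromere proteins, of CKS2 and of NUSAP1 is paler on array 6 than on arrays 4 and 5.

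Array 6 stood apart in other genes too. The summed signal of 5 choroid plexus genes (of 8 listed) was 115 and 199.8 on arrays 4 and 5 and 5475 on array 6 at E80, against sums of 92.9 to 176 at E60, and transthyretin (TTR) alone had 4475 on array 6. The summed signal of 6 microglial genes (of 10) was 263 on both arrays 4 and 5 and 746 on array 6 at E80, against sums of 172 to 269.8 at E60. None of the genes of either list passed the test. Array 6 was also the highest in the sums of 9 astrocyte genes, 4706, 5205 and 7331 on arrays 4, 5 and 6 of E80, against sums of 3106 to 3431 at E60, and of 6 oligodendrocyte lineage genes, 1242, 972 and 1737 at E80, against sums of 781 to 969.6 at E60. No deposited signal is 0, and the lowest is 0.00614, so a signal above 0 does not show that a marker was detected. Some markers were near the bottom of the scale, such as TTR with 3.7, 1.51 and 1.47 at E60. Within E80, the choroid plexus, microglial, astrocyte and oligodendrocyte lineage sums were highest on array 6, as was the median of the cell cycle genes. The sums of radial glia and neuronal genes were highest on array 6 too. Those of endothelial, fibroblast and meningeal, erythroid and intermediate progenitor genes were lowest on array 6. The oligodendrocyte lineage and neuronal sums were lower on array 5 than on array 4, unlike the median of the cell cycle genes. The summed signal of the 65 genes was highest on array 5, with 12881, 13610 and 13205 on arrays 4, 5 and 6. The part of these lists in the result was not tested. Without array 6, 5 of the 65 genes fell (CCNB1, CDKN2C, CENPF, CKS2 and NUSAP1), against 0.429% of all probe sets with the same arrays, none rose, against 0.404%, since CDKN2D did not pass (0.75, adjusted p = 0.0927), and 35 had all remaining arrays of E80 below E60 (53.8%, against 20% of all probe sets with the same arrays).

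The label of the tissue was checked with marker genes. Of 8 measured neuronal genes (of 15 listed), 3 rose (37.5%, against 0.933% of all probe sets) and none fell (against 1.01%). Their summed signal was 16096 to 17036 at E80, against 12782 to 13998 at E60. Of 9 measured radial glia genes (of 18), 3 rose (33.3%) and none fell, with sums of 4978 to 5495 at E80 and 5415 to 5576 at E60. Those that rose were HOPX, FAM107A and TNC, known from outer radial glia though not only from them. VIM (-0.38, adjusted p = 0.179) and HES1 (-0.34, adjusted p = 0.287) were lower at E80 without overlap. FABP7 (-0.03, adjusted p = 0.903) and SLC1A3 (0.12, adjusted p = 0.859) overlapped. The list had 5 positive and 4 negative differences, of -1.13 (SOX9, adjusted p = 0.28) to 1.36 (PROM1, adjusted p = 0.0516). Of the intermediate progenitor list, 2 of 10 genes were measured and neither passed, so this cell type cannot be followed here. Of 9 astrocyte genes (of 10), 4 rose (44.4%) and none fell. The sum of 7 fibroblast and meningeal genes (of 9) was 1421 to 2419 at E80 and 2043 to 3087 at E60, and that of 9 endothelial genes (of 9) was 1125 to 1381 at E80 and 1416 to 1525 at E60, and no gene of these lists passed, nor did any of 6 oligodendrocyte lineage genes (of 9) or 4 erythroid genes (of 8). The part of these lists in the cell cycle signals was not tested.

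Other genes of the cell cycle, from a list of 122 that leaves out these 65, were counted in the same way. Of 48 measured, 3 fell (6.25%, against 1.01% of all probe sets) and none rose (against 0.933%), 38 had a negative difference (79.2%, against 55.7%), 23 had all arrays of E80 below E60 (47.9%, against 14.4%), and the median log2 difference was -0.39. Topoisomerase TOP2A, which untangles chromosomes before mitosis, had signals of 115, 107 and 194 at E80, against 314, 268 and 283 at E60, and fell by 1.11 on the log2 scale (SE 0.22, adjusted p = 0.0474). RACGAP1, of the division furrow, had signals of 97.4, 136 and 142 at E80, against 202, 234 and 239 at E60, and fell by 0.86 (SE 0.17, adjusted p = 0.0449). DLGAP5, a spindle protein, had signals of 25.5, 25.7 and 30.8 at E80, against 66.1, 61.0 and 51.5 at E60, and fell by 1.12 (SE 0.21, adjusted p = 0.0405). WEE1, the kinase that restrains the mitotic CDK, had signals of 81.5, 81.2 and 108 at E80, against 177, 152 and 138 at E60, without overlap, and a difference of -0.79 (SE 0.17, adjusted p = 0.055). With medians made equal no gene of this list fell, none of these genes fell without array 1, 2, 3, 4 or 5, and 1 fell without array 6.

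Of 46 listed genes of DNA replication, the step before mitosis, 28 were measured, 2 fell (7.14%, against 1.01% of all probe sets) and none rose (against 0.933%), 23 had a negative difference (82.1%, against 55.7%), 11 had all arrays of E80 below E60 (39.3%, against 14.4%), and the median was -0.20. The ribonucleotide reductase subunit RRM2, made in cells that replicate, had signals of 65.4, 67.6 and 84.1 at E80, against 146, 154 and 137 at E60, and fell by 1.02 on the log2 scale (SE 0.15, adjusted p = 0.0218). The polymerase clamp PCNA had signals of 212, 258 and 225 at E80, against 368, 380.2 and 371 at E60, and fell by 0.69 (SE 0.11, adjusted p = 0.0235). Both were apart between the days. The replication helicase subunit MCM2 had signals of 121, 128 and 115 at E80, against 205, 170.2 and 173 at E60, with a difference of -0.59 (SE 0.12, adjusted p = 0.0564). The clamp loader subunit RFC5 had signals of 124, 135 and 133 at E80, against 193, 188 and 182 at E60, with a difference of -0.52 (SE 0.11, adjusted p = 0.0534), and neither passed. Without array 1, 2 or 4 no replication gene fell, and 1 fell without array 3 or 6. All comparisons of the cell cycle, replication and marker genes share the same 6 arrays, so they are no independent evidence for each other.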

How the data were processed

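Cortical RNA of 6 embryos was hybridised to 1-colour Affymetrix Pig Genome Arrays. Deposited were linear intensity values, the MAS5 signals made by the authors' software from the probes of each set and multiplied by 1 factor per array. The sources used here do not give the MAS5 version or a filter. Of 24123 probe sets, 124 controls were left out. The log2 of each signal was taken with no pseudocount and no filter on low values. The difference of E80 minus E60 was fitted in limma 3.58.1 under R 4.3.3 (lmFit, then eBayes with its trend on intensity) on the 6 arrays without covariates, with Benjamini-Hochberg adjustment over 23999 probe sets. The study names no statistical test and a threshold of 3-fold, which was applied to the mean log2 signals as a description. Symbols come from the annotation of the platform, in which 10069 probe sets have exactly 1 symbol, 198 several and 13732 none. The Entrez IDs of all 65 genes carry the same symbol in the RefSeq table of the current pig assembly. No coordinates or sequences are given, since no genome or sequence table was used here.

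The 65 genes, the other gene lists and the tests were chosen with earlier results of these data known. Values of all arrays were to be given for genes past the test, the 3 smallest p and the brightest gene of each of 10 roles, genes past 3-fold without overlap and genes whose bright probe sets disagree, and for the 4 smallest p of the replication and other cell cycle lists. Genes beyond this are named too. Alternatives were quantile normalization, medians set equal, adding 32 before the log2, keeping the brightest 66% of probe sets, no intensity trend, array weights, the mean of all probe sets of a gene, and leaving out each array. The fit was also run on simulated arrays with independent noise that depends on intensity only and with changes in bright probe sets. It found 96 of 100 changes of 2-fold and made 6 false calls among 202. Such arrays hold no array or litter effects, so the run cannot show how the fit behaves with them. Whether embryos of a day are littermates is not given for single arrays, so the embryos of a day may not be independent. The p-values rest on the spread between these embryos, moderated by the intensity trend over all probe sets.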

Additional observations from a re-analysis of the deposited data

How the results depend on the processing

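The direction of the cell cycle genes as a group was the same in all alternatives run, while the number of calls was not. The median log2 difference of the 65 genes was -0.13 with medians set equal. The median of all probe sets was 0.062 with medians set equal, the reverse of its sign in the deposited scaling, and -0.0071 after quantile normalization. With medians set equal, the medians of the other cell cycle genes and of the replication genes were -0.27 and -0.0831. That of the other cell cycle genes was -0.24 with 32 added and -0.31 after quantile normalization. Leaving out each array in turn gave medians of -0.41 to -0.30 for the other cell cycle genes and -0.30 to -0.13 for the replication genes.

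Of all probe sets, 520 rose and 649 fell with array weights, 353 rose and 410 fell among the brightest 66%, 0 rose and 0 fell without the intensity trend (1709 higher and 2599 lower at an unadjusted p under 0.05 in limma with the trend), and 108 fell with medians set equal. Without 1 array, 0 to 178 rose and 1 to 189 fell. Of the 65 genes, 9 fell with array weights, 4 with the mean of all probe sets, 1 with medians set equal, and 0 without the trend, where 0 rose. The brightest 66% of probe sets kept 60 of the 65 genes, of which 6 fell. Without 1 array, 0 to 5 fell and 0 to 1 rose. Of the other cell cycle genes, 6 fell with array weights, 1 with 32 added, 1 after quantile normalization, 0 with medians set equal, 0 without the trend, and 0 to 1 without 1 array. Of the replication genes, 4 fell with array weights, 4 among the brightest 66%, 0 without the trend, and 0 to 2 without 1 array. The genes past 3-fold without overlap numbered 0 by the ratio of mean linear signals (chosen after seeing the data), with 32 added, with medians set equal, after quantile normalization and among the brightest 66%, 0 to 2 without 1 array, and 4 at 2-fold (background 3.31%). Among the brightest 66%, fewer probe sets share the adjustment and the intensity trend is fitted anew. The causes of the different counts were not tested.

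CCNG1 turned its sign with array weights (-0.0358), after quantile normalization (-0.0671) and without 1 array (-0.22 to 0.14), and E2F3 without 1 array (-0.0494 to 0.41). No paired analysis was possible because embryos of different days cannot share a litter and nothing in the labels pairs them otherwise. The signals of dim probe sets such as CDKN2C and CENPT limit what their differences can show.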

Other observations

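The following values were picked out after they were seen and are given without a test. CCND2 had low signals on 1 array of each day, 414 on array 6 (E80) and 394 on array 3 (E60), against 852 to 1010 on the other 4 arrays. The neurogenic factor NEUROD1 had its lowest signals on the same arrays, with 119.9, 201 and 76.0 at E80, against 217, 193 and 60.2 at E60. Among the kinases of the group, NEK6 was higher at E80 without overlap and NEK9, which acts before it, lower without overlap on its brightest probe set, and neither passed the test.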
